A study of Mus musculus with 8 samples.

Results

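The 9 genes described here, Gm15446, Pkd1l2, Cphx3, Gm3512, Gm12576, Gm45388, Gm47181, 4932412D23Rik and Gm26848, were taken from the 31053 genes counted in cortical nuclei of Wt and Ifnar1-/- mice. They were chosen by a large difference between the genotypes seen in these same libraries, so the genotype differences below are a description and carry no test. Gm15446, Pkd1l2 and Gm26848 had separate genotype levels in each of the 4 main cell classes. For Gm26848, however, the glial counts were near the level of free neuronal RNA and are not read as expression by glia. A shift in every class was not seen for all 9. Gm45388, Gm12576, Gm47181 and Gm3512 had few or no UMIs (unique molecular identifiers, each counting 1 captured RNA molecule) in oligodendrocytes and microglia. The genotypes overlapped for 4932412D23Rik in oligodendrocytes (18 UMIs in Wt, 17 in Ifnar1-/-) and for Cphx3 in microglia (11 and 9).

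Single-nucleus RNA sequencing (snRNA-seq) was performed on the cortex of 8 naive mice, 4 Wt (Ifnar1+/+) and 4 Ifnar1-/-, with the sexes balanced at 2 and 2 in both genotypes, all labelled as 6 weeks old and as C57BL6J. The Ifnar1-/- mice are constitutive knockouts from a line backcrossed to C57BL/6J, whereas the labels do not say whether the Wt mice were littermates, so genotype and colony cannot be told apart. Total UMIs per library ranged from 44063346 to 58423423, and 52089 nuclei were kept, 26187 from Wt and 25902 from Ifnar1-/- mice. The nuclei were sorted into classes by marker genes, chiefly 26547 glutamatergic neurons, 6659 GABAergic neurons, 7087 oligodendrocytes and 4389 microglia, and only 170 astrocytes (5 to 65 per mouse), which were too few to compare. Any pair of libraries shared at most 23 cell barcodes, and at most 0.348% of those of the smaller library.

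Ifnar1 encodes a subunit of the receptor for type I interferons, which signals through JAK kinases and STAT proteins to genes that carry an interferon-stimulated response element in their promoters. Ifnar1 itself was counted in all 8 libraries, at 16.8 to 19.9 CPM (counts per 1000000 UMIs with TMM scaling, used throughout unless stated) in Wt and 14.2 to 16.7 CPM in Ifnar1-/- over all nuclei, and at 42.3 to 61.6 against 23.0 to 36.4 CPM in microglia. These counts do not show which part of the transcript was read, so they do not check the genotype labels. Of the 9 genes, 5 are annotated in GENCODE M21 as long intergenic noncoding RNAs (lincRNAs), transcripts without an open reading frame of known function that lie between protein-coding genes. The other 4 are annotated as protein-coding, but only Pkd1l2 and Cphx3 carry established names. Pkd1l2 belongs to the polycystin-1 family of large membrane proteins, and Cphx3 to a family of homeobox genes known from the early embryo.

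The 9 genes lie on 7 chromosomes of GRCm38. Gm15446 lies at chr5:109923400-109943936 on the plus strand, Pkd1l2 at chr8:116995679-117082449 on the minus strand, Cphx3 at chr14:26082297-26235744 on the plus strand and Gm3512 at chr14:7153511-7174533 on the minus strand. The lincRNAs are Gm12576 at chr11:83817682-83849493 (minus strand), Gm45388 at chr8:52080163-52099750 (plus strand), Gm47181 at chr9:124344398-124347514 (minus strand), 4932412D23Rik at chr16:42725702-42875762 (minus strand) and Gm26848 at chr17:6314199-6493180 (plus strand). Gm45388 and Pkd1l2 are 64.9 Mb apart on chromosome 8, and Gm3512 and Cphx3 are 18.9 Mb apart on chromosome 14. Only 4932412D23Rik shares chromosome 16 with Ifnar1, at a distance of 48.6 Mb. Gm47181 lies 0.146 Mb from the last annotated gene of chromosome 9.

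Because the mice differ in an interferon receptor, RefSeq promoters (250 bases before to 50 bases after a transcription start, GRCm38.p6) were searched for GAAANNGAAA, the core of the interferon-stimulated response element, on both strands with overlapping matches counted. Promoters were found for 5 of the 9 genes, with 12 windows in all. The motif was in 1 of the 12 windows, against 3.44% of 32851 promoters of the same length. Several windows of Gm3512 overlap each other, so the 12 are not independent and nothing is read from this share. The windows of Gm15446 and Pkd1l2, whose libraries separated by genotype in each of the 4 main classes, held no match. The Gm15446 window lies inside the gene body of the GENCODE annotation. Of the 7 windows of Gm3512, the one shown holds 3 matches, written in capitals, of which 2 overlap. This Gm3512 window lies outside the gene body of the GENCODE annotation. The 3 windows are, in the order given, chr5:109933313-109933612 (plus strand), chr8:117082400-117082699 (minus strand) and chr14:7175334-7175633 (minus strand), each printed 5′ to 3′ on its gene's strand, where the matches read as the reverse complement of the motif.
Gm15446: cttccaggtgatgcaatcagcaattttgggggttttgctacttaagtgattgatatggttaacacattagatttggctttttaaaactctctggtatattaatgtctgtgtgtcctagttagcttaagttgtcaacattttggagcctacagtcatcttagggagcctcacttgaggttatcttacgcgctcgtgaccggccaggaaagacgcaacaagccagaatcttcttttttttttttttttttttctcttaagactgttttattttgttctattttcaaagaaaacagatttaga
Pkd1l2: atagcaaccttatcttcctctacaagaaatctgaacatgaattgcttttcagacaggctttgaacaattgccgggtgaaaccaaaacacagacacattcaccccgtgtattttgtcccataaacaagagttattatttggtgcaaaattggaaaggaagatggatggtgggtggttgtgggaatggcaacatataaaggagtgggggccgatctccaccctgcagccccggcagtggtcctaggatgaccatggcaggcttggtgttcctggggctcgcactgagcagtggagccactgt
Gm3512: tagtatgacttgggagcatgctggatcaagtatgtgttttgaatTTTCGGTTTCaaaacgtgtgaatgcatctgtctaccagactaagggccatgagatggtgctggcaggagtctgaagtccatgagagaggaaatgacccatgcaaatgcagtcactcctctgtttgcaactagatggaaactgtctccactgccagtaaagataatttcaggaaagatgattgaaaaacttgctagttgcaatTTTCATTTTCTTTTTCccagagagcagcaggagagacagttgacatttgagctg

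Over all nuclei, 6 of the 9 genes were lower and 3 were higher in Ifnar1-/- mice. For each of the 9, the 4 Wt and the 4 Ifnar1-/- libraries did not overlap. Such a separation was also found for 246 of the 19972 genes tested (1.23%). At an adjusted p under 0.05 (edgeR's quasi-likelihood test, Benjamini-Hochberg adjustment), 6 of the 9 were called among the 10 genes called in all (0.0501% of the genes tested), and since this contrast chose the genes, nothing is read from that count.

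**Figure D1:**
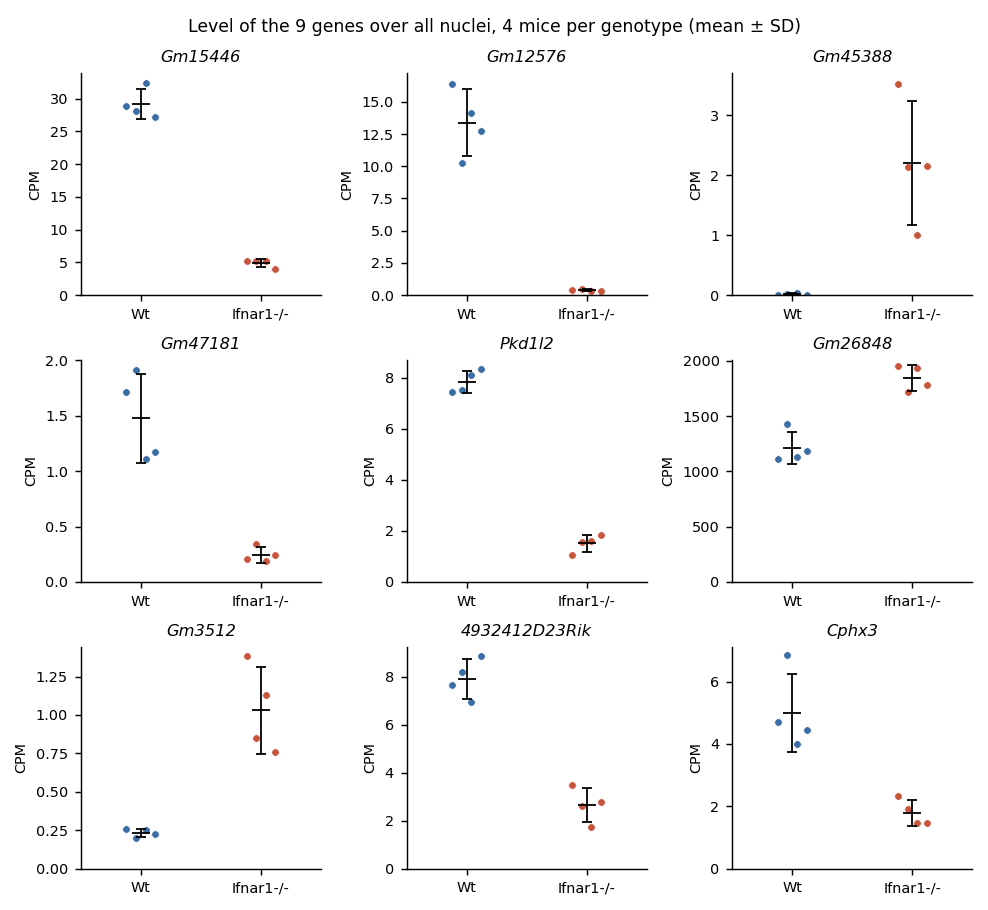
Level of each gene over all nuclei in CPM (TMM-scaled, linear axis from 0), with 1 point per mouse and the mean ± SD of 4 mice per genotype. Gm45388, Gm3512 and Gm26848 sit higher in Ifnar1-/- mice and the other 6 genes lower, with no overlap between the genotypes; the genes were chosen by this difference.

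Gm15446, a predicted gene whose transcript resembles that of the zinc finger gene Zfp932, was counted at 28.9, 28.1, 32.4 and 27.2 CPM in the Wt mice F1, F2, M1 and M2, and at 5.22, 5.18, 5.23 and 4.03 CPM in the Ifnar1-/- mice F1, F2, M1 and M2. All 4 Wt mice thus lay far above all 4 Ifnar1-/- mice, and the log2 fold change was -2.57 (SE 0.13). The transcript of Gm15446 is 97.39% identical to that of Zfp932 over 1765 nt, so reads of the pair could be confused. Zfp932 itself measured 25.3 ± 0.499 CPM in Wt mice against 23.9 ± 1.63 CPM in Ifnar1-/- mice (SD, n = 4 each), a log2 fold change of -0.09 (SE 0.09, adjusted p = 1 by edgeR's quasi-likelihood test).

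Pkd1l2 was counted at 7.45, 7.50, 8.09 and 8.32 CPM in Wt and at 1.04, 1.56, 1.59 and 1.85 CPM in Ifnar1-/- mice, a log2 fold change of -2.37 (SE 0.19). The Wt mice spanned less than 1 CPM. Pkd1 and Pkd2, the polycystins of the primary cilium that are mutated in polycystic kidney disease, had log2 fold changes of -0.16 (SE 0.08) and -0.05 (SE 0.07). The 7 other family members were Pkd1, Pkd2, Pkd1l1, Pkd1l3, Pkd2l1, Pkd2l2 and Pkdrej. Over all nuclei they had log2 fold changes of -0.16 to 0.42, and 0 of 7 were called by edgeR's test. There, 0 of 7 had an unadjusted p under 0.05, and DESeq2 called 0 of 7. In glutamatergic neurons Pkd1 had a log2 fold change of -0.19 (SE 0.08, unadjusted p = 0.0429 by edgeR's test) and was not called. Gm15395, the antisense gene within Pkd1l2, had 8 UMIs in Wt and 7 in Ifnar1-/- mice.

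Cphx3 was counted at 4.71, 6.84, 4.0 and 4.43 CPM in Wt and at 2.32, 1.90, 1.48 and 1.46 CPM in Ifnar1-/- mice, a log2 fold change of -1.48 (SE 0.23). Every Wt mouse was above every Ifnar1-/- mouse, with Wt F2 the highest. The gene sits in a duplicated block, and 1710 of the 1714 nt of its transcript align to Cphx2 without a mismatch. Cphx1, Cphx2, Duxbl2, Plac9b, Tmem254b and Tmem254c had 0 UMIs in all 8 libraries, so the counts assigned to Cphx3 cannot be told apart from RNA of its copies. Tmem254a, 154625 bp from Cphx3, had 248 UMIs in Wt and 34 in Ifnar1-/- mice (1.31 ± 0.754 against 0.182 ± 0.0885 CPM, SD, n = 4 each).

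Gm3512, one of a large set of near-identical genes on chromosome 14, was counted at 0.256, 0.200, 0.253 and 0.225 CPM in Wt and at 1.38, 0.848, 1.13 and 0.762 CPM in Ifnar1-/- mice, a log2 fold change of 2.12 (SE 0.25). These levels rest on 45 and 186 UMIs, and the groups did not overlap. At 95% identity over at least 200 nt, 43 other genes matched its transcripts, 41 of them counted in the files. The 41 together held 8159 UMIs in Wt and 8682 in Ifnar1-/- mice, at 33.6 to 50.8 and 39.4 to 59.1 CPM of total UMIs. Their sum overlapped between the genotypes, and it was far larger than the count of Gm3512 itself, so the assignment of reads to Gm3512 is uncertain.

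Of the lincRNAs, Gm12576 was counted at 16.4, 10.2, 14.1 and 12.8 CPM in Wt and at 0.392, 0.481, 0.277 and 0.327 CPM in Ifnar1-/- mice, a log2 fold change of -5.18 (SE 0.24). The 2586 Wt UMIs stood against 66 in Ifnar1-/- mice. Gm45388 went the other way, with 0, 1, 2 and 0 UMIs in the Wt mice and 135, 93, 54 and 99 UMIs in the Ifnar1-/- mice. It was thus nearly absent from Wt nuclei. The ratio of its pooled levels was 133 (95% interval 45.3 to 650, exact, covering counting error only).

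Gm47181 was counted at 1.72, 1.92, 1.11 and 1.17 CPM in Wt and at 0.209, 0.344, 0.185 and 0.240 CPM in Ifnar1-/- mice, a log2 fold change of -2.59 (SE 0.29). Both Wt females lay above both Wt males. 4932412D23Rik was counted at 7.65, 8.22, 6.94 and 8.89 CPM in Wt and at 3.47, 2.64, 1.76 and 2.77 CPM in Ifnar1-/- mice, a log2 fold change of -1.58 (SE 0.21). The highest Ifnar1-/- mouse stood well below the lowest Wt mouse.

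Gm26848 differed from the other 8 in its abundance and in the size of its difference. It was counted at 1114, 1427, 1129 and 1187 CPM in Wt and at 1953, 1715, 1934 and 1782 CPM in Ifnar1-/- mice, a log2 fold change of 0.60 (SE 0.09), or 1.52-fold. The groups did not overlap, although Wt F2 came near the Ifnar1-/- mice. The gene spans 178982 bp and overlaps 8 annotated genes, of which Dynlt1b, a dynein light chain gene on the same strand, had 0 UMIs. Dynlt1b lies wholly within Gm26848 (overlap of 6185 bp), so its lack of UMIs does not show that it is silent. Dynlt1a, a dynein light chain gene that overlaps Gm26848 on the opposite strand, stood at 16.3 ± 1.51 CPM in Wt and 15.8 ± 2.31 CPM in Ifnar1-/- mice (SD, n = 4 each).

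The genotype difference was next followed into the cell classes, with the UMIs of each class summed within each mouse. In glutamatergic neurons all 9 genes passed the filter on low counts, and for all 9 the genotypes did not overlap (as for 1.53% of the 18523 genes tested). EdgeR's test called 6 of the 9 there (0.054% of all genes). In GABAergic neurons 6 passed the filter and 1 was called (0.0273% of all genes). In oligodendrocytes 3 passed and 2 were called (0.0632%), and in microglia 3 passed and edgeR called 0 (0.0945%), although all 3 had an unadjusted p under 0.05 and DESeq2 called 2. Since a gene can pass through the genotype in which it is high, and the contrast chose the genes, these counts are given for completeness and support nothing.

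Gm15446 was lower in Ifnar1-/- mice by a similar amount in each class. The level was 27.4 ± 1.74 against 4.35 ± 0.567 CPM in glutamatergic neurons, 29.1 ± 3.89 against 4.69 ± 0.542 CPM in GABAergic neurons, 51.8 ± 7.05 against 10.6 ± 2.20 CPM in oligodendrocytes and 22.2 ± 6.24 against 3.37 ± 2.28 CPM in microglia (SD, n = 4 each). The log2 fold changes were -2.65 (SE 0.13), -2.62 (SE 0.16), -2.31 (SE 0.21) and -2.94 (SE 0.49) in that order. The microglial values rest on 19, 20, 16 and 20 UMIs in Wt and 1, 1, 4 and 2 UMIs in Ifnar1-/- mice. The difference was also seen in cells outside these 4 classes, with 61 against 14 UMIs in oligodendrocyte precursors (ratio of pooled levels 5.75, 95% interval 3.18 to 11.1 from counting error) and 117 against 18 UMIs in nuclei that resembled striatal projection neurons (ratio 6.16, 3.73 to 10.8). In astrocytes there were 2 UMIs in each genotype.

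Pkd1l2 was the other gene whose libraries separated by genotype in all 4 classes in the same direction with large fold changes. Its level was 8.01 ± 0.480 CPM in Wt and 1.62 ± 0.409 CPM in Ifnar1-/- mice in glutamatergic neurons (log2 fold change -2.30, SE 0.19) and 2.96 ± 0.336 against 0.794 ± 0.449 CPM in GABAergic neurons (-1.85, SE 0.37, SD and n = 4 throughout). In oligodendrocytes it had 16, 13, 30 and 26 UMIs in Wt and 0, 1, 1 and 3 UMIs in Ifnar1-/- mice (-3.88, SE 0.47). In microglia it had 20, 16, 12 and 28 UMIs in Wt and 0, 3, 0 and 0 UMIs in Ifnar1-/- mice. The 3 microglial UMIs of the Ifnar1-/- mice all came from mouse F2, and the ratio of pooled levels was 21.5 (95% interval 7.07 to 106 from counting error). Oligodendrocyte precursors had 19 Pkd1l2 UMIs in Wt and 0 in Ifnar1-/- mice, a level at least 8.36-fold higher in Wt against a floor of 3 UMIs over the group. In the nuclei that resembled striatal projection neurons the genotypes overlapped, with 6 UMIs in Wt and 4 in Ifnar1-/- mice (ratio 1.42, 0.337 to 6.85).

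**Figure D2:**
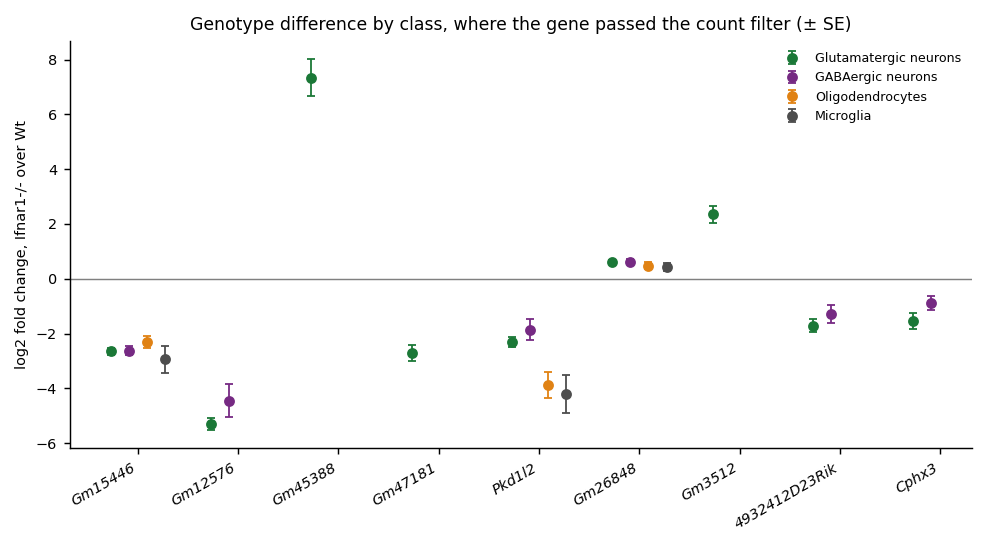
Log2 fold change of Ifnar1-/- over Wt (y axis) for each gene (x axis) in the classes where the gene passed the filter on low counts, with the SE as bars; the genes were chosen by this contrast. Gm15446, Pkd1l2 and Gm26848 have a value in all 4 classes, and the value of Gm45388 rests on 2 Wt UMIs.

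Gm26848 was higher in Ifnar1-/- mice in each class, at 1370 ± 149 against 2110 ± 68.5 CPM in glutamatergic neurons, 860 ± 84.1 against 1320 ± 44.1 CPM in GABAergic neurons, 304 ± 20.9 against 422 ± 58.2 CPM in oligodendrocytes and 361 ± 48.0 against 487 ± 56.0 CPM in microglia (SD, n = 4 each). The libraries of the genotypes did not overlap in any of the 4 classes. In oligodendrocytes and microglia of Wt mice its level was 22.4% and 25.5% of that in glutamatergic neurons. Slc17a7, the vesicular glutamate transporter that glial cells should lack, was at 58.3 and 87.7 CPM of total UMIs in the same nuclei against 292 CPM in glutamatergic neurons, whereas in GABAergic neurons Gm26848 was at 62.3% and Slc17a7 at 8.56%. The glial counts of Gm26848 were therefore near the level of free neuronal RNA and are not read as expression by glia.

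Gm12576 was separated by genotype in both neuronal classes, with 664, 401, 575 and 454 UMIs in Wt and 11, 13, 14 and 12 UMIs in Ifnar1-/- glutamatergic neurons, and 43, 18, 21 and 32 against 2, 0, 0 and 2 UMIs in GABAergic neurons. In nuclei that resembled striatal projection neurons it had 80 UMIs in Wt and 3 in Ifnar1-/- mice. Oligodendrocytes had 9 UMIs in Wt and microglia 6, with 0 in Ifnar1-/- mice in both, and the Wt levels were 6.83% and 10.4% of that in glutamatergic neurons, below those of Slc17a7. No shift of Gm12576 in glia can be read from these counts.

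Gm45388 was counted almost entirely in glutamatergic neurons, which held 364 of its 381 UMIs in Ifnar1-/- mice (126, 91, 52 and 95 by mouse). GABAergic neurons of Ifnar1-/- mice had 6, 1, 0 and 3 UMIs. Oligodendrocytes and microglia had 0 in both genotypes, which allows up to 0.382 and 0.98 CPM in Ifnar1-/- mice (3 UMIs over the group). A level like that of glutamatergic neurons, 3.12 ± 1.40 CPM (SD, n = 4), would have been detectable.

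Gm47181 UMIs in glutamatergic neurons numbered 213 for Wt and 30 for Ifnar1-/- mice, and in GABAergic neurons 42 and 4, where each Ifnar1-/- mouse had 1 UMI. It had 2 UMIs in oligodendrocytes and 1 in microglia, all in Wt mice, so a shift there was not detectable at this depth. Gm3512 UMIs in glutamatergic neurons numbered 24 for Wt and 120 for Ifnar1-/- mice, and in GABAergic neurons 9 and 39. Oligodendrocytes and microglia together had 3 Gm3512 UMIs over the 8 libraries.

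4932412D23Rik was lower in Ifnar1-/- mice in glutamatergic neurons, at 8.92 ± 1.14 against 2.74 ± 0.766 CPM, and in GABAergic neurons, at 7.02 ± 1.69 against 2.97 ± 1.38 CPM (SD, n = 4 each). In oligodendrocytes it had 3, 5, 4 and 6 UMIs in Wt and 2, 2, 5 and 8 in Ifnar1-/- mice. The genotypes overlapped there, at 2.25 ± 0.858 and 2.09 ± 1.08 CPM. Cphx3 separated by genotype in glutamatergic neurons (5.17 ± 1.42 against 1.79 ± 0.555 CPM), in GABAergic neurons (3.55 ± 0.813 against 1.92 ± 0.340 CPM) and in oligodendrocytes (6.11 ± 1.02 against 1.84 ± 0.951 CPM). In microglia it had 11 UMIs in Wt and 9 in Ifnar1-/- mice and the genotypes overlapped.

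**Figure D3:**
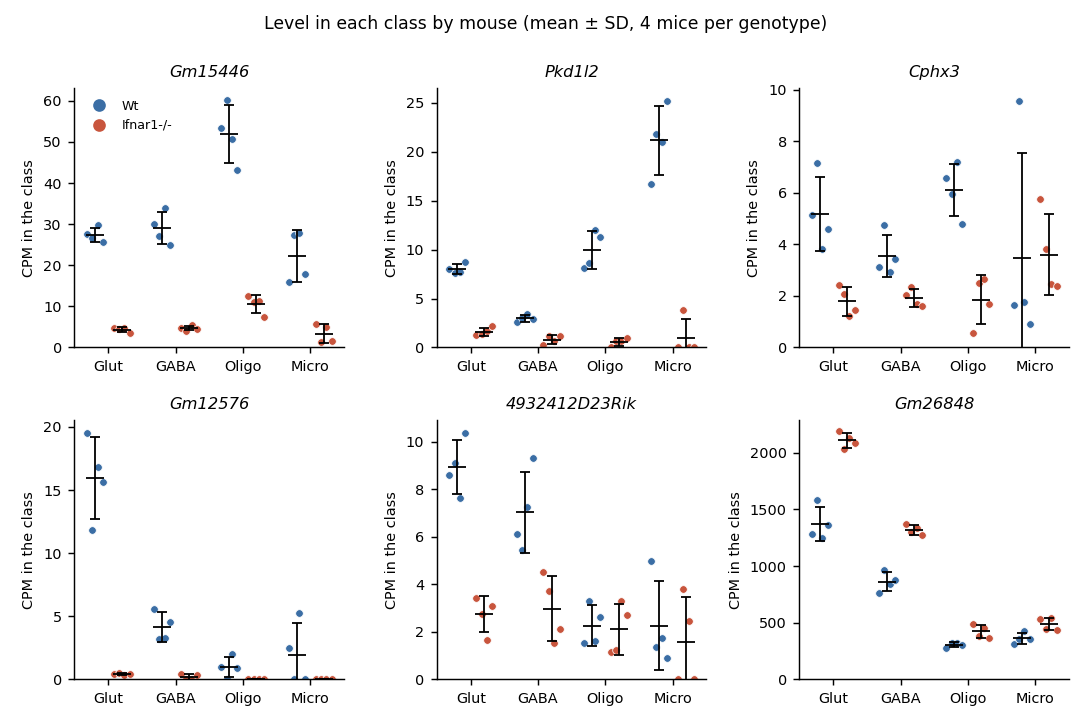
Level in CPM (linear axes from 0) of the 6 genes that passed the filter in the comparison of classes, in glutamatergic neurons (Glut), GABAergic neurons (GABA), oligodendrocytes (Oligo) and microglia (Micro), with 1 point per mouse and the mean ± SD of 4 mice per genotype (bars are cut at 0). Among these 4 classes, Wt levels of Gm15446 peak in oligodendrocytes and those of Pkd1l2 in microglia, whereas Gm12576, 4932412D23Rik and Gm26848 are highest in glutamatergic neurons. Oligodendrocyte precursors and nuclei that resembled striatal projection neurons are not drawn. Some Wt levels are higher there, such as 69.0 ± 8.93 CPM of total UMIs for Gm15446 in the precursors (SD, n = 4).

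Levels were then compared between classes within each genotype, a comparison that the choice of genes did not use (none of the 9 was used to form the clusters). The mouse was a term in this fit, since each mouse gives every class. TMM scaling was made across the classes here, so these fold changes can differ from the ratio of the CPM printed for each class. Of the 9 genes, 6 passed the filter among 16033 genes. In Wt mice Gm15446 was higher in oligodendrocytes than in glutamatergic neurons (log2 fold change 0.84, SE 0.10, adjusted p = 1.45e-09, edgeR), in 4 of 4 mice, and lower in microglia (-0.77, SE 0.16, adjusted p = 4.7e-05), in 3 of 4 mice. It did not differ detectably between GABAergic and glutamatergic neurons (-0.04, SE 0.08, adjusted p = 0.699). In Ifnar1-/- mice, at the lower level, it was again higher in oligodendrocytes (1.17, SE 0.18, adjusted p = 6.79e-07). Higher levels in oligodendrocytes were called for 35.0% of all genes in Wt and 34.6% in Ifnar1-/- mice.

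Among the 4 classes compared, Pkd1l2 had its highest Wt level in microglia, 21.1 ± 3.51 CPM (SD, n = 4). This was above glutamatergic neurons in 4 of 4 mice (log2 fold change 1.00, SE 0.21, adjusted p = 8.31e-05, edgeR), a direction called for 34.5% of all genes. Oligodendrocyte precursors, outside this comparison, stood at 18.8 ± 13.6 CPM of total UMIs in Wt mice (SD, n = 4), on 19 UMIs. Against glutamatergic neurons, Pkd1l2 was lower in GABAergic neurons (-1.57, SE 0.18, adjusted p = 3.72e-09) and was not called in oligodendrocytes (0.27, SE 0.20, adjusted p = 0.217). In Ifnar1-/- mice the order was another one, with oligodendrocytes below glutamatergic neurons (-1.49, SE 0.55, adjusted p = 0.0166) and no call in microglia (-1.29, SE 0.72, adjusted p = 0.107). These values rest on 5 UMIs in oligodendrocytes and 3 in microglia, and the gene could pass the filter through the Wt mice, so they are a description. Leaving out Ifnar1-/- F2, the mouse with the only microglial UMIs, gave a call in microglia (-7.42, adjusted p = 0.00127). That call rests on no microglial UMIs, so nothing is read from it. The difference between the genotypes in the order of the classes was not tested, because it rests on the contrast that chose the gene.

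The neuronal lincRNAs formed a different group. In Wt mice Gm12576 was lower than in glutamatergic neurons by 2.07 (SE 0.18) on the log2 scale in GABAergic neurons, 4932412D23Rik by 0.47 (SE 0.17) and Gm26848 by 0.80 (SE 0.10) (adjusted p of 5.63e-11, 0.0204 and 1.35e-08, edgeR). All 3 were also lower in oligodendrocytes and microglia, with log2 fold changes of -2.10 to -3.96. These glial levels were 6.83% to 28.0% of the glutamatergic ones, in the range of Slc17a7 or below it. Over the 6 genes, 5 were lower in GABAergic neurons of Wt mice (as were 24.4% of all genes), 3 in oligodendrocytes (36.5%) and 5 in microglia (38.0%). In Ifnar1-/- mice the counts were 2 (24.2%), 3 (36.6%) and 2 (37.8%). The call of 4932412D23Rik in GABAergic neurons (adjusted p = 0.0204) was lost with DESeq2 (adjusted p = 0.125), with total UMIs as the only scaling (0.0855) and without Wt F1 (0.0709) or Wt F2 (0.0932). That of Cphx3 in microglia (-1.14, SE 0.40, adjusted p = 0.0108) was lost without Wt F1 (0.0944) or Wt M2 (0.099) and with total UMIs (0.111). In Ifnar1-/- mice the lower level of Gm15446 in microglia (-1.09, SE 0.41, adjusted p = 0.0226) was lost without Ifnar1-/- F2 (0.131) or M2 (0.139) and with total UMIs (0.192). The call of Gm12576 in oligodendrocytes of Ifnar1-/- mice (adjusted p = 0.0472) rests on 0 UMIs there and was lost with DESeq2 (0.052), with total UMIs (0.0559), without Wt F1 (0.059) and without any 1 of the 4 Ifnar1-/- mice (0.0702 to 0.112).

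Within the neuronal classes, levels in the subtypes are given without a test. They are in CPM of total UMIs, pooled over 4 mice with the lowest and highest mouse. Pkd1l2 in Wt mice was highest in near-projecting neurons of layers 5 and 6 (Layer 5/6 NP), at 22.5 CPM (19.2 to 26.8), followed by corticothalamic neurons of layer 6 (Layer 6 CT) at 11.9 CPM (10.5 to 15.9). Intratelencephalic (IT) neurons were lower, at 6.76 CPM (6.11 to 7.70) in layer 2/3 and 5.99 CPM (5.25 to 7.01) in layer 5. The ranges of Layer 5/6 NP, Layer 6 CT and layer 2/3 did not overlap in Wt mice. In Ifnar1-/- mice Layer 5/6 NP had 1 Pkd1l2 UMI (0.450 CPM), and layer 2/3 neurons kept 2.58 CPM (1.28 to 4.45).

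Gm12576 in Wt mice was at 36.7 CPM (29.5 to 47.5) in Layer 5/6 NP, 23.7 CPM (15.9 to 41.5) in Car3 and claustrum-like neurons, 19.0 CPM (13.2 to 23.3) in Layer 6 CT, 13.1 CPM (10.2 to 16.1) in layer 2/3 and 13.2 CPM (9.11 to 14.9) in layer 5 IT neurons. Car3 and claustrum-like neurons overlapped with both Layer 5/6 NP and Layer 6 CT, and the last 3 overlapped with each other. For Pkd1l2 the Car3 and claustrum-like neurons were at 7.29 CPM (0 to 13.5), below every mouse's value in Layer 5/6 NP. Among interneurons of Wt mice Gm12576 was counted in PValb (5.22 CPM, 4.15 to 6.87) and Sst (5.78 CPM, 3.21 to 7.69) cells. It had only 5 UMIs in Lamp5 and 2 in Vip cells. Of the 50 Gm12576 UMIs left in glutamatergic neurons of Ifnar1-/- mice, 20 were in Layer 6 CT (1.51 CPM, 0.977 to 1.91).

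Gm45388 in Ifnar1-/- mice had 229 of its 364 glutamatergic UMIs in clusters without a layer name, at 3.55 CPM (1.85 to 5.22). Among the named subtypes it was at 4.92 CPM (2.48 to 7.49) in Layer 6 CT, 6.30 CPM (1.54 to 14.6) in Layer 5/6 NP and 2.10 CPM (0.599 to 3.84) in layer 5 IT neurons. Layer 2/3 neurons had 3 UMIs in 4 mice (0.165 CPM, 0 to 0.639), below every mouse's value in Layer 6 CT, and Car3 and claustrum-like neurons had 1 UMI. In Wt mice the 4 layer subtypes had 1 Gm45388 UMI in all, in layer 5 IT neurons. Among the named glutamatergic subtypes, Pkd1l2, Gm12576 and Gm45388 thus shared Layer 5/6 NP as that of the highest pooled level. Gm47181 in Wt mice was highest there too, at 4.73 CPM (3.65 to 5.9) on 12 UMIs. 4932412D23Rik and Cphx3 in Wt mice were highest elsewhere, in layer 2/3 (12.2 CPM) and in Car3 and claustrum-like neurons (7.9 CPM).

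Gm15446 varied little between subtypes, at 23.3 to 33.9 CPM in the Wt glutamatergic subtypes and 25.8 to 38.6 CPM in the 4 interneuron subtypes. Its pooled level in Ifnar1-/- mice was 2.93 to 8.56 CPM in the same subtypes. Gm26848 was highest in layer 2/3 IT neurons in both genotypes among glutamatergic subtypes, at 1670 CPM (1490 to 1840) in Wt and 2510 CPM (2390 to 2640) in Ifnar1-/- mice, overlapping with Car3 and claustrum-like neurons (1420 to 1820 and 2290 to 2740). It was lowest in PValb cells, at 685 CPM (602 to 754) and 1050 CPM (989 to 1120).

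**Figure D4:**
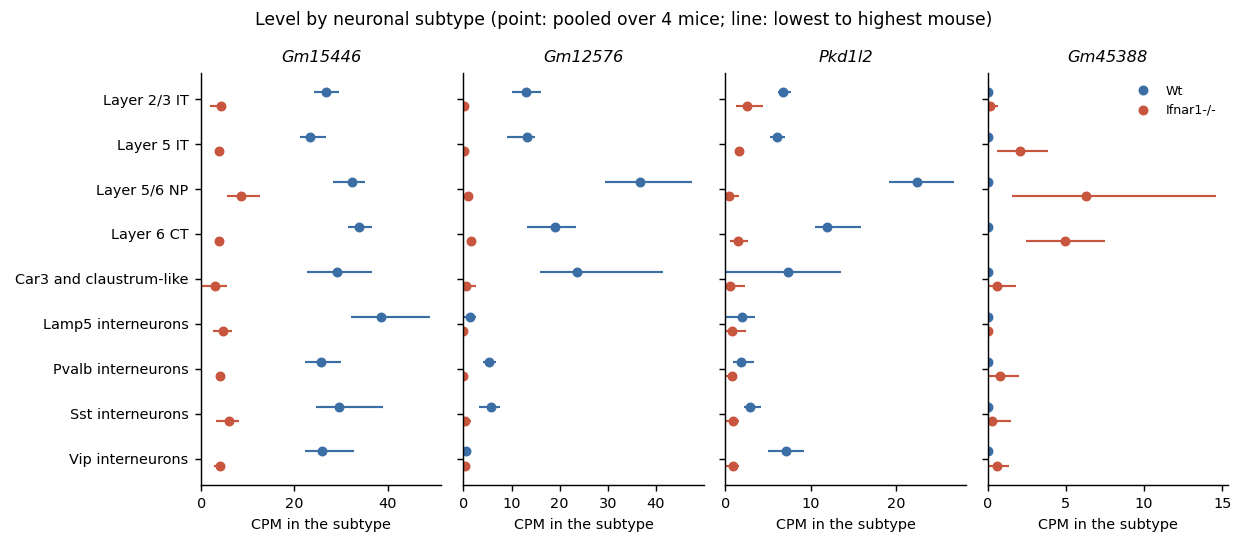
Level in CPM of total UMIs (x axes, linear from 0) of 4 genes in neuronal subtypes (y axis) by genotype; points are pooled over 4 mice and lines run from the lowest to the highest mouse. Pkd1l2 is highest in Layer 5/6 NP neurons of Wt mice, the ranges of Gm12576 in Layer 5/6 NP and in Car3 and claustrum-like neurons overlap, and Gm45388 in Ifnar1-/- mice is lower in layer 2/3 than in Layer 6 CT, while the glutamatergic clusters without a layer name, which hold most of its UMIs, are not drawn.

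Sex, which the choice of genes did not use, was tested with genotype in the model. The libraries of males and females differed broadly, with 27.1% of genes called over all nuclei. In glutamatergic neurons, GABAergic neurons, oligodendrocytes and microglia, 30.3%, 25.7%, 23.0% and 19.0% were called. Whether males and females were prepared in separate batches is not known here, so sex and such a batch cannot be told apart. Of the 9 genes none was called over all nuclei by edgeR, where 2 had an unadjusted p under 0.05 and DESeq2 called 1. In glutamatergic neurons 1 was called, Cphx3, which was lower in males (log2 fold change -0.63, SE 0.17, adjusted p = 0.0185, edgeR), with means of 6.14 CPM in females and 4.21 CPM in males of Wt mice, and 2.24 and 1.33 CPM in Ifnar1-/- mice. This call was lost without Wt F2 (adjusted p = 0.0762), Wt M1 (0.054) or Ifnar1-/- M1 (0.0563) and with genotype left out (0.353). None of the 6 tested in GABAergic neurons, the 3 in oligodendrocytes and the 3 in microglia was called, none of them at an unadjusted p under 0.05 either, and DESeq2 called 0.

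The genotype difference was also asked to differ between the sexes by an interaction term. No gene was called in any of the 5 fits (0.0% of 20692 genes over all nuclei, and of 19295, 15390, 11839 and 10532 genes for the 4 classes in the order above) by either edgeR or DESeq2, while 521, 351, 276, 314 and 275 genes reached an unadjusted p under 0.05 in edgeR. Among the 9, 4932412D23Rik in GABAergic neurons had an interaction of -1.69 (SE 0.46) on the log2 scale, with an unadjusted p of 0.00375 and an adjusted p of 1 in edgeR. Its means were 5.76 and 4.11 CPM in Wt and Ifnar1-/- females, and 8.28 and 1.82 CPM in Wt and Ifnar1-/- males. Pkd1l2 in microglia had an unadjusted p of 0.0155 and an adjusted p of 1 in edgeR, and rests on the 3 UMIs of mouse Ifnar1-/- F2.

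Genes around the 9 were examined next. Within 500 kb of their ends, 103 other genes were tested over all nuclei, and none was called by genotype in edgeR's test (0.0501% of all genes were), with 4 at an unadjusted p under 0.05 (3.88%, against 1.43% of all genes). The median absolute log2 fold change of the neighbours was 0.14, against 0.10 over all genes tested other than the 9. The window of 1 Mb gave no call either. DESeq2 called 2 of the neighbours over all nuclei. Gm45388 had 2 neighbours within 500 kb, neither of which passed the filter. One of them, the lincRNA Gm45389 at a distance of 48892 bp, had 0 UMIs in Wt and 43 in Ifnar1-/- mice, and the other, 1190028D05Rik, had 23 and 24. Near Gm15446 the lincRNA 1010001B22Rik, 51575 bp away and also below the filter, had 21 UMIs in Wt and 0 in Ifnar1-/- mice. These 3 genes were named after their values were seen, and they were not tested.

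The 2 neighbours called by DESeq2 over all nuclei, named after their values were seen, lie near Gm12576 and Cphx3. Tmem254a, near Cphx3, had 38, 30, 79 and 101 UMIs in Wt and 8, 5, 16 and 5 UMIs in Ifnar1-/- mice over all nuclei (log2 fold change -2.81, SE 0.51, adjusted p = 0.298 in edgeR and 0.000195 in DESeq2). Ap2b1, an adaptor subunit of clathrin-coated vesicles that lies 412647 bp from Gm12576, had a smaller log2 fold change of -0.51 (SE 0.09, adjusted p = 0.21 in edgeR and 0.000702 in DESeq2).

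**Figure D5:**
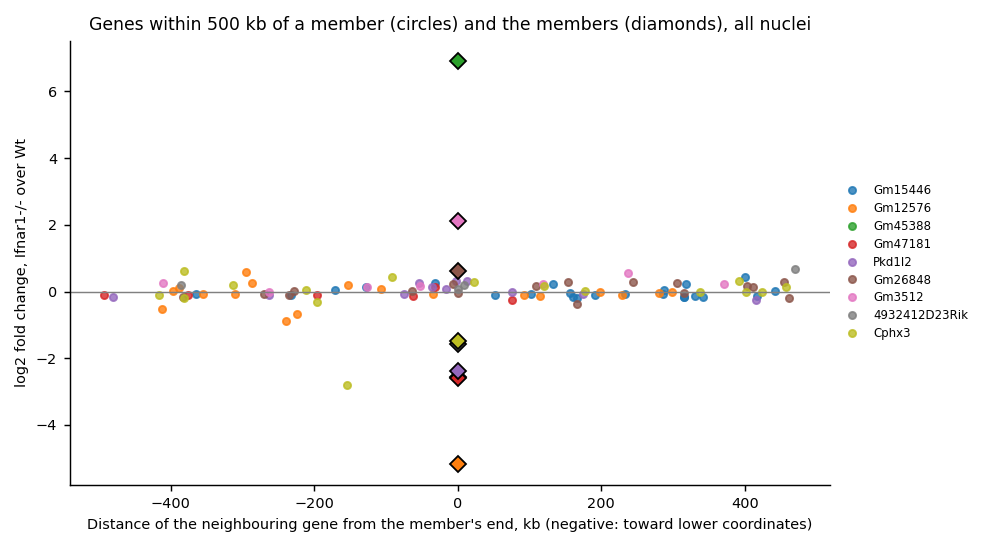
Log2 fold change of Ifnar1-/- over Wt over all nuclei (y axis) of the 103 tested genes within 500 kb of a member of the list (genes below the filter are not drawn; circles, coloured by the member) against their distance in kb (x axis), with the 9 genes as diamonds at 0. Most neighbours lie near 0, and the lowest circle is Tmem254a near Cphx3.

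Other genes with a like pattern were sought among 10761 genes tested in glutamatergic neurons, GABAergic neurons and oligodendrocytes. The pattern asked for a difference of at least 2-fold in one direction and no overlap of the genotypes in each of the 3 classes. It was met by 5 genes (0.0465%), of which Gm15446 and Pkd1l2 are in the list. Of the other 3, Prss48, a serine protease gene, was lower in Ifnar1-/- mice, at 29.8 ± 11.5 against 5.54 ± 3.72 CPM in glutamatergic neurons and 216 ± 62.4 against 34.3 ± 24.6 CPM in oligodendrocytes (SD, n = 4 each). Its log2 fold changes were -2.44 (SE 0.48), -2.63 (SE 0.50) and -2.64 (SE 0.42) in glutamatergic neurons, GABAergic neurons and oligodendrocytes, and it was called in none of them by edgeR (adjusted p of 0.409, 0.417 and 0.0698).

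Gon4l, a nuclear regulator of transcription, was higher in Ifnar1-/- mice, at 99.3 ± 8.42 against 201 ± 1.55 CPM in glutamatergic neurons (log2 fold change 1.01, SE 0.07, adjusted p = 0.00182, edgeR) and 93.5 ± 3.61 against 202 ± 26.2 CPM in oligodendrocytes (1.11, SE 0.12, adjusted p = 0.0086, edgeR). Gm43713, an antisense gene inside Gon4l, was higher as well, at 73.6 ± 20.3 against 239 ± 27.2 CPM in glutamatergic neurons (1.70, SE 0.19, adjusted p = 0.0255, edgeR). Gon4l and Prss48 lie 2.83 Mb apart on chromosome 3, which holds none of the 9 genes. The likeness of these 3 genes to the list was defined on the contrast that chose the list, so it is a description.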

How the data were processed

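Nuclei from the cortex of 8 mice were profiled by 10x 3' snRNA-seq. The authors deposited gene-by-barcode UMI counts per library, made with Cell Ranger on an mm10 pre-mRNA reference, and Seurat 3.1.5 is named in the submitters' processing notes. Barcodes with 200 to 6000 genes, over 1000 UMIs and under 10% mitochondrial UMIs were kept, Scrublet doublets were removed, and nuclei were clustered in scanpy 1.11.5 (3000 variable genes without the 9 genes, 40 components, Leiden resolution 1) and named by marker genes. UMIs were summed per class and mouse and tested with edgeR 4.0.16 (quasi-likelihood, TMM, filterByExpr, Benjamini-Hochberg, R 4.3.3), for genotype alone, sex beside genotype, their interaction, and class within genotype with the mouse as a term. DESeq2 1.42.0, other scalings, filters and left-out libraries were alternatives. Methods were tested on simulated data. Transcripts were compared with BLAST+ 2.17.0, and positions came from GENCODE M21. Intervals and floors (3 UMIs) cover counting error only. The members and lists were chosen with earlier results of these data known. Besides the 9, the genes named were Ifnar1, the polycystin and Cphx families, called genes within 500 kb, copies and overlapping genes, and up to 10 genes with a like difference in 3 classes. Fewer nuclei of a type and less RNA per nucleus cannot be told apart over all nuclei. A result on 1 neighbouring gene is not reported here.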

Additional observations from a re-analysis of the deposited data

Results flagged for a closer look

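Among the 36 groups of 4 mice examined, Gm15446 in the Ifnar1-/- mice held a library far from the other 3. Over all nuclei Ifnar1-/- M2 stood at 4.03 CPM against 5.18 to 5.23 CPM in the others (Dixon ratio 0.96, above the 95% critical value for 4 samples). In glutamatergic neurons, which make up much of the same library, it stood at 3.51 CPM against 4.53 to 4.73 CPM (Dixon ratio 0.841). Chance marks about 1 in 20 groups in this way.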

How the results depend on the processing

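The genotype log2 fold changes of the 9 genes kept their direction and stayed within 2 SE in 410 of 411 alternatives, and the exception was Pkd1l2 in microglia without Ifnar1-/- F2 (-7.16). The number of genes called by genotype over all nuclei, glutamatergic neurons, GABAergic neurons, oligodendrocytes and microglia was 10, 10, 4, 7 and 9. It was 20, 25, 10, 18 and 16 with sex as a covariate and 43, 42, 15, 14 and 15 with DESeq2. With no filter it was 12 in oligodendrocytes and 21 in microglia. Replicate labels did not pair the mice (correlations of -0.233 to 0.075), and with the replicate block it was 14 in oligodendrocytes and 17 in microglia. Leaving out 1 library gave 4 to 7, 4 to 9, 2 to 4, 2 to 7 and 3 to 12 genes by genotype, and 3138 to 6357, 3435 to 6560, 2039 to 4656, 1575 to 2729 and 926 to 2221 by sex.

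The interaction without a filter called 7 genes in GABAergic neurons and 3 in oligodendrocytes. Of the 9 genes, DESeq2 called 1 by sex over all nuclei, none was called in glutamatergic neurons with genotype left out, and leaving out 1 library gave 0 to 1 and 0 to 2. In Ifnar1-/- mice 5 were lower in oligodendrocytes with no filter, and 1 in microglia with total UMIs. Leaving out 1 library gave 4 to 5 lower in GABAergic neurons and 4 to 5 in microglia of Wt mice, and 2 to 3, 2 to 4 and 1 to 3 in GABAergic neurons, oligodendrocytes and microglia of Ifnar1-/- mice. The cause of these changes was not tested. Microglia of Ifnar1-/- F1 numbered only 156, which limits what was detectable there.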
